A study of Mus musculus with 6 samples.

Results

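The mitochondrial ribosomal protein genes were examined in RNA-seq of mouse fibroblasts that overexpress *Ms4a15*. Members were all genes of the expression table whose symbol begins with Mrpl or Mrps, followed by a number and, in some, a letter from a to c. The rule took 74 of the 19078 genes listed, 46 with an L for the large and 28 with an S for the small ribosomal subunit. The libraries came from immortalized mouse embryonic fibroblasts that are conditional *Gpx4* -/- and express Cre-ERt2, and both groups carried a CRISPR activation system. In the 3 libraries of the *Ms4a15* OE group, a guide RNA raised *Ms4a15* from its own locus in a pool of cells, not in a single clone. The other group had 3 control libraries, labelled wild type and described in the methods as cells with an empty lentivirus. Cells were selected as pools with G418 and grown in DMEM with serum and antibiotics, and polyadenylated RNA was sequenced. The values used were 1 per gene, the authors' mean of normalized counts over all 6 libraries of both groups. Levels in single libraries, and therefore the difference between *Ms4a15* OE and control cells and the spread between replicates, were not analysed here. What follows describes the levels of these genes over both groups of cells combined. *Ms4a15* itself had an authors' mean of 638, which is pooled over both groups and so does not check the labels of single libraries.

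Mitochondria keep a small genome of their own, and its protein-coding genes encode core subunits of the oxidative phosphorylation complexes. A dedicated ribosome translates them inside the organelle. Its RNAs are transcribed from the mitochondrial genome, whereas all of its proteins are encoded in the nucleus, made in the cytosol and imported. The large subunit forms peptide bonds and holds the exit tunnel, and the small subunit binds the messenger RNA and reads its codons. Many of the proteins descend from those of bacterial ribosomes, and others are found only in mitochondria. Nearly all are present once in each ribosome, the stalk protein Mrpl12 being the known exception with several copies.

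Promoter sequences are shown for 5 members on which the description of levels and of gene pairs turns, from 250 bases before to 50 bases after the RefSeq start, on build GRCm38.p6. *Mrpl42* (chr10:95501900-95502199, minus strand) and *Mrps21* (chr3:95871465-95871764, minus strand) had the highest level per kb of transcript among the genes of their subunits. *Mrpl12* (chr11:120484387-120484686, plus strand) had the highest mean of all members, *Mrps2* (chr2:28467816-28468115, plus strand) the lowest, and *Mrpl30* (chr1:37890227-37890526, plus strand) starts 66 bases from an oppositely oriented gene. Each window covers the gene's upstream flank and the beginning of its first exon, and capitals mark letters that match the motifs of NRF1, ETS factors or YY1 described with the promoters.
Mrpl42: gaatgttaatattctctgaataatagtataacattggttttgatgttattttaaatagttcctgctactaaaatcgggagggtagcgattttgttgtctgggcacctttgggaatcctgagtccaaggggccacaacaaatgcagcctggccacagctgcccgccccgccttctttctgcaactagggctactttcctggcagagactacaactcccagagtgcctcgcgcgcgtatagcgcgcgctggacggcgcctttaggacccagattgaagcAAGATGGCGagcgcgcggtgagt
Mrps21: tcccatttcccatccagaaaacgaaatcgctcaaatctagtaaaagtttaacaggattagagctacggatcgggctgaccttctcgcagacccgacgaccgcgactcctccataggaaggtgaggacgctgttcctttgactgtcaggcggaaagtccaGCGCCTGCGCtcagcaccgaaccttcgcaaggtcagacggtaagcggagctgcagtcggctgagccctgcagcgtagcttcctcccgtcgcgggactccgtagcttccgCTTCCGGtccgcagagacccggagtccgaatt
Mrpl12: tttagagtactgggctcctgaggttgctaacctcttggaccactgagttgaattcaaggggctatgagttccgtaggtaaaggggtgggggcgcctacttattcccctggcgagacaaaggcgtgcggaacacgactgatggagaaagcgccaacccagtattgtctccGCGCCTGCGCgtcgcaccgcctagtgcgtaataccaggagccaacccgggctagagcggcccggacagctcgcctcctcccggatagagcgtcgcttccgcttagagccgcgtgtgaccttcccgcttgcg
Mrpl30: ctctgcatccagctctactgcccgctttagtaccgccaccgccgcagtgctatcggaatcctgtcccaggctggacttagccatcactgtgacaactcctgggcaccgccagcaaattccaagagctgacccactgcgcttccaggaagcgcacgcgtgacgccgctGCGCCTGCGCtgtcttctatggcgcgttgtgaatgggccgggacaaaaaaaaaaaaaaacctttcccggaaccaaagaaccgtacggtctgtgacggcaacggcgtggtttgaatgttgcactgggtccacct
Mrps2: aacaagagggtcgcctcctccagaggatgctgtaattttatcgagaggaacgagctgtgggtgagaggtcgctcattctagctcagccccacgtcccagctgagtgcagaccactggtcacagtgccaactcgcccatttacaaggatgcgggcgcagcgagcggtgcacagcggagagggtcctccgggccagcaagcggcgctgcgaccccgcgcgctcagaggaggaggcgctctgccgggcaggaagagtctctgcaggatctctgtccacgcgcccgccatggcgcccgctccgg

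The labelled cell type was compared with marker genes. Of 12 fibroblast markers, 11 were in the table, and the most abundant were the collagen gene *Col1a2* (authors' mean 135155), the intermediate filament gene *Vim* (115135) and the fibronectin gene *Fn1* (114243). The small proteoglycans that fibroblasts often secrete were near the bottom, with means of 12.1 for *Dcn* and 0.675 for *Lum*. The highest marker of another cell type was the tubulin gene *Tubb3*, a neural marker, at 2463. The 6 epithelial markers summed to 185, most of it *Krt14* (170), with *Epcam* at 0.176 and *Cdh1* at 1.17. The 4 immune markers listed summed to 713, of which *Lyz2* made up 534, above the fibroblast marker *Pdgfra* (278), and the pan-leukocyte gene *Ptprc* 11.1. The 4 endothelial markers summed to 125, of which *Cdh5* made up 107, and the skeletal muscle gene *Acta1* had a mean of 5.42. *Tubb3* was above the fibroblast markers *Pdgfrb* (2150) and *Thy1* (1092), while the other neural marker listed, the glial gene *Gfap*, had a mean of 1.17.

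Together the mitochondrial ribosomal protein genes held 0.414% of the table's normalized counts, 0.282% in large-subunit and 0.133% in small-subunit genes. The whole table summed to 40991755 normalized counts per library. The 82 genes of cytosolic ribosomal proteins held 5.64%, 13.6 times the sum of the mitochondrial ones. A further 7 mitoribosomal proteins have symbols that the rule does not take, and with them the share was 0.469%. Depth was ample for all but the lowest member. From the values of genes with a single read, 1 unit of the mean corresponded to about 5.99 reads over the 6 libraries, and the size factors of the libraries differed at most 1.28-fold. Intervals given with means are approximate 95% Poisson intervals, since 1 average factor converted each mean to reads. They cover counting error only, not the variation between cultures.

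Nearly all members were well expressed. Means were at least 1000 for 64 members, between 100 and 1000 for 9, and below 100 for 1, *Mrps2*. To compare genes, means were divided by the length of 1 principal transcript, and levels are given per kb of that transcript. The median member stood at 1362 per kb, against 563 for the 9912 protein-coding genes with a mean of at least 100, a ratio of 2.42. Members have shorter transcripts, with a median of 1302 bases against 3116.5, and the undivided median means were 2128 and 1748, a ratio of 1.22. Of the 74 members, 66 were above the median of those genes per kb of transcript, 73 per kb of coding sequence and 46 by the undivided mean. The median percentile of the members among all 15465 protein-coding genes with a length was 84.2. The levels of 49 members lay within 2-fold of the members' median, 11 were higher and 14 lower. The 90th percentile was 5.50 times the 10th percentile, compared with 10.0 times for cytosolic ribosomal protein genes and 32.8 times for protein-coding genes with a mean of at least 100.

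Large-subunit genes had the higher median level, 1512 per kb with a range from 314 to 6503. For small-subunit genes the median was 1115 per kb, with a range from 17.2 to 2915. The ratio of the medians was 1.36. The direction held for each length used, but the ratio was closer to 1 with the coding length (1.21) and with no division by length (1.13). The ranges overlapped between 314 and 2915 per kb, and the middle 50% of the genes ran from 981 to 2275 per kb in the large and from 709 to 1948 per kb in the small subunit. At the upper end, 8 large-subunit genes stood above the highest small-subunit gene per kb of transcript, 5 did so per kb of coding sequence and 4 by the undivided mean. Genes are not replicates, so no test was made between the subunits.

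**Figure D1:**
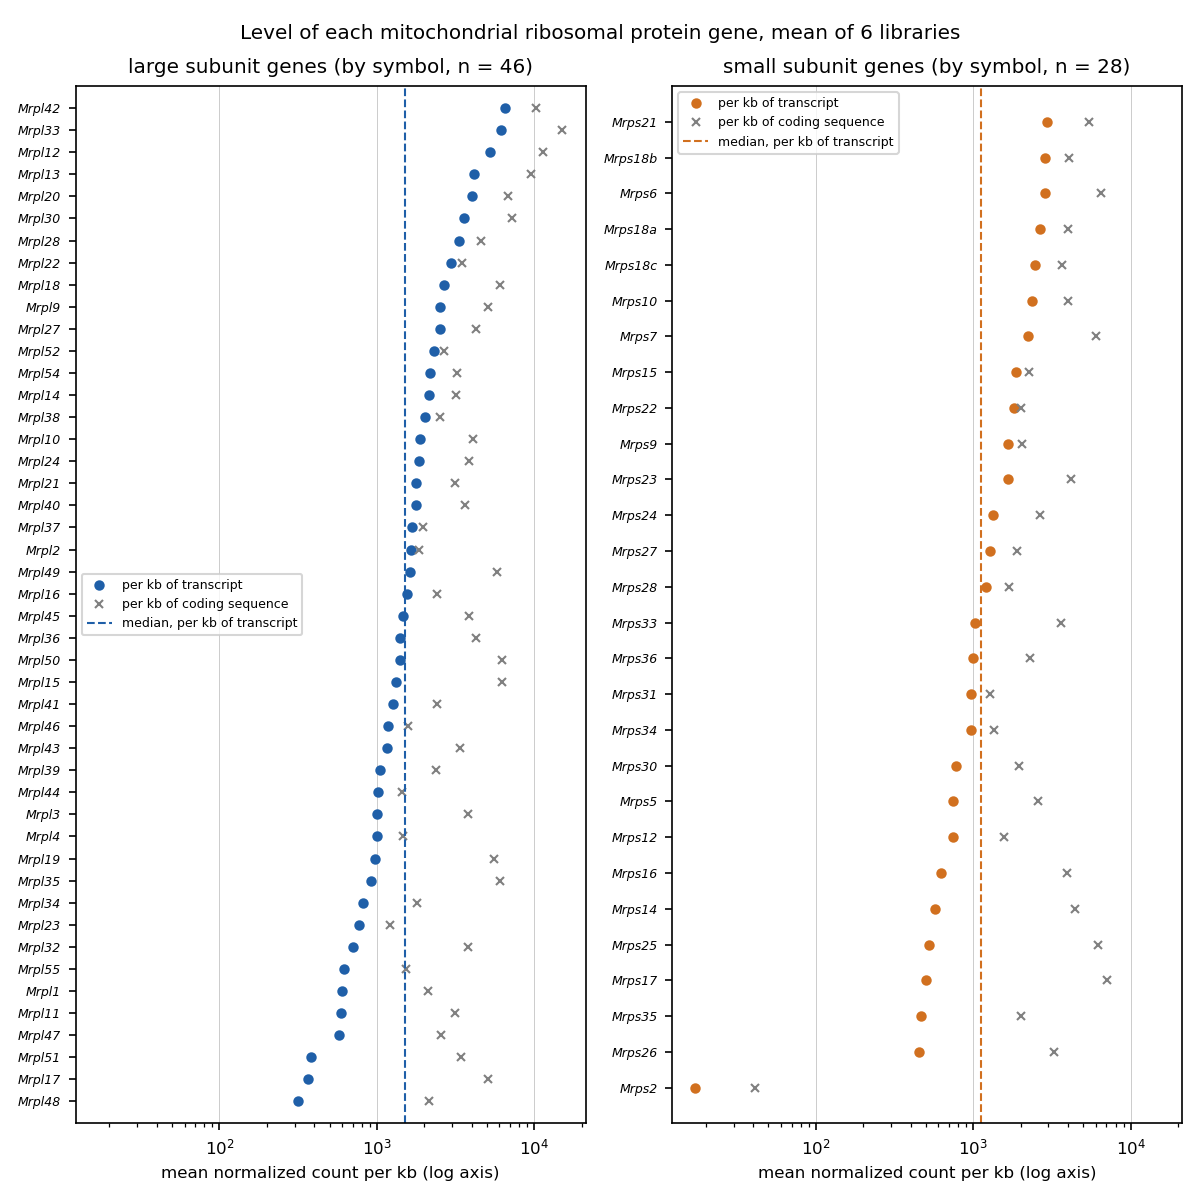
Level of each of the 46 large-subunit (left, blue) and 28 small-subunit genes (right, orange), as the authors' mean normalized count of 6 libraries per kb on a log axis. Dots use the transcript length, grey crosses the coding length, and dashed lines are the medians per kb of transcript, 1512 and 1115. *Mrps2* lies far below all other members on both scales.

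Among large-subunit genes, *Mrpl42*, which encodes a protein without a bacterial counterpart, had the highest level at 6503 per kb of transcript (mean 4331, interval 4278 to 4384). *Mrpl33*, a small protein of bacterial descent, followed at 6143 per kb and was the highest per kb of coding sequence. The stalk gene *Mrpl12*, whose protein contacts the translation factors, came next at 5206 per kb and had the highest mean of any member, 6851 (interval 6785 to 6917). *Mrpl10*, which anchors the Mrpl12 copies to the ribosome, was lower at 1880 per kb. *Mrpl13* and *Mrpl20*, the counterparts of bacterial L13 and L20, reached 4148 and 3997 per kb. The counting intervals of the 5 highest genes did not overlap, the closest being those of *Mrpl13* (4101 to 4195 per kb) and *Mrpl20* (3939 to 4055 per kb). Those intervals do not cover the choice of length. By coding length the ranks were 3 for *Mrpl42*, 1 for *Mrpl33*, 2 for *Mrpl12*, 4 for *Mrpl13* and 7 for *Mrpl20*.

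The lowest large-subunit genes were *Mrpl48* (314 per kb), *Mrpl17* (367 per kb), *Mrpl51* (380 per kb), *Mrpl47* (573 per kb) and *Mrpl11* (588 per kb). None of them was scarce by its mean. *Mrpl17*, the counterpart of bacterial L17, had a mean of 2675, above the median mean of its subunit (2192). Its annotated transcript measures 7300 bases, of which 528 are coding. Per kb of coding sequence *Mrpl17* stood at 5067 and ranked the 19th of the 74 members, compared with the 72nd per kb of transcript. *Mrpl11*, whose protein sits at the base of the stalk, moved from the 64th to the 44th place in the same way.

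Per kb of transcript, small-subunit genes were led by *Mrps21* at 2915 (interval 2853 to 2977), followed by *Mrps18b* at 2850, *Mrps6* at 2848, *Mrps18a* at 2638 and *Mrps18c* at 2446 per kb. The first 3 of these differed by less than their counting intervals. Mrps21 and Mrps6 are the counterparts of bacterial S21 and S6. *Mrps21* has a short transcript of 488 bases, and its mean of 1422 was below the median mean of its subunit (1935). The highest small-subunit gene was *Mrps17* per kb of coding sequence and *Mrps7* by the undivided mean. The low end held *Mrps25* (520 per kb), *Mrps17* (501), *Mrps35* (463), *Mrps26* (455) and, well apart, *Mrps2* (17.2). *Mrps17*, the counterpart of bacterial S17, has a transcript of 5061 bases with 360 coding ones, and it rose from the 68th place per kb of transcript to the 6th per kb of coding sequence, at 7045. *Mrps25* rose from the 67th to the 11th place. These 2 genes moved further than any other member.

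The order of the members thus depended on the length used. Of the 10 lowest members per kb, 9 had a transcript longer than 2500 bases, as did 19 of all 74. Across the 74 genes, Spearman's rho between the level per kb and transcript length was −0.62, and with coding length −0.086. A value divided by a length tends to fall with that length, and rho of the undivided mean was 0.40 with transcript length and 0.35 with coding length. Between the order per kb of transcript and that per kb of coding sequence, 26 members moved by more than 20 ranks. The correlations are across genes, which share the 6 libraries and the annotation and are not independent replicates. Which 3′ end the cells used was not measured here.

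*Mrps2* was the only member with a low mean on every scale. Its protein is the counterpart of bacterial S2 and part of the small subunit. The authors' mean was 35.7 (interval 31.1 to 40.8), 54.2-fold below the median mean of small-subunit genes. Without *Mrps2* the highest and lowest means of the members were 13.7-fold apart. In GENCODE M21, no exon of *Mrps2* overlapped another gene, and none of its 50-base windows occurred in a transcript of another gene. The authors' methods name UCSC known genes for counting, and overlaps in that annotation were not searched. The table also has a row named MRP-S2, with a mean of 18.9. It further lists MRPS11 in capitals (65.7) and bMRP64 (86.4), which the symbol rule does not take and whose relation to the mouse genes of like name was not examined. Some other genes that translation relies on were listed low as well, among them the cytosolic *Rps2* (mean 452, against a median of 23597 for cytosolic ribosomal protein genes), *Rpl34* (409) and the mitochondrial RNA-binding gene *Slirp* (7.30). *Rps2* and *Rpl34* were chosen after their values were seen. The reason for these low values was not tested.

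The L or S of the symbol does not always give the place of the protein. The *Mrps18* family has 3 paralogs related to bacterial S18. Mrps18b and Mrps18c lie in the small subunit, whereas Mrps18a lies in the large one. Their levels were 2850, 2638 and 2446 per kb of transcript for *Mrps18b*, *Mrps18a* and *Mrps18c*, and on this scale all 3 were among the 5 highest genes with an S. Their undivided means were further apart, 3075, 2332 and 1560, and per kb of coding sequence they ranked the 26th, 28th and 35th of the 74 members. *Mrps30*, whose protein also lies in the large subunit, stood at 779 per kb. *Mrps36* encodes a component of the 2-oxoglutarate dehydrogenase complex and not of the ribosome, and had 996 per kb. With the genes sorted by place and *Mrps36* left out, 48 large-subunit genes had a median of 1512 and 25 small-subunit genes a median of 1203 per kb, a ratio of 1.26.

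Reads of some members may be shared with other genes. This was judged from GENCODE M21, not from the UCSC known genes that the authors' methods name for counting. Of the 74, 37 had 50-base windows that also occur in transcripts of other genes. *Mrpl23* was the most affected, with 76.4% of its windows shared with the pseudogene *Mrpl23-ps1*, and its mean of 531 (767 per kb) is uncertain for that reason. *Mrps36* shared 36.2% of its windows with 7 other genes. Exons of 24 members overlapped those of another gene, over more than 50% of their length in *Mrps18b* (59.1%, with *Gm16279*) and *Mrps25* (58.2%, with *Nr2c2*). Where an overlapping gene lies on the opposite strand, the strand setting of the counting decides which gene receives the reads. The labels describe a stranded library preparation, but that setting is not given in the sources used here.

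The mitoribosomal proteins with other symbols are Dap3, Chchd1, Aurkaip1 and Ptcd3 of the small and Gadd45gip1, Ict1 and Mrp63 of the large subunit. Their median was 972 per kb, from 272 for *Mrp63* to 3846 for *Ptcd3*. Per kb of transcript this lay within the range of the members, of which only *Mrps2* was below *Mrp63*. By the undivided mean, *Ptcd3* (9926) was above the highest member, *Mrpl12* (6851). The factors that work with the ribosome were lower. For 17 translation factors and regulators the median was 548 per kb, with the elongation factor gene *Tufm* the highest at 2687 and *Slirp* the lowest at 2.70. Of 23 assembly factors, 19 were listed, with a median of 443 per kb, the highest *Mterfd1* at 1012 and the lowest the GTPase gene *Gtpbp10* at 0.109. For 17 mitochondrial aminoacyl-tRNA synthetases the median was 292 per kb, from 110 for *Mars2* to 4460 for *Lars2*. The median of the mitochondrial ribosomal protein genes was 2.48-fold that of the translation factors per kb of transcript, 4.13-fold per kb of coding sequence and 1.43-fold by the undivided mean. Cytosolic ribosomal proteins had a median of 29861 per kb, 21.9 times that of the mitochondrial ones, or 11.1 times by the undivided mean.

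**Figure D2:**
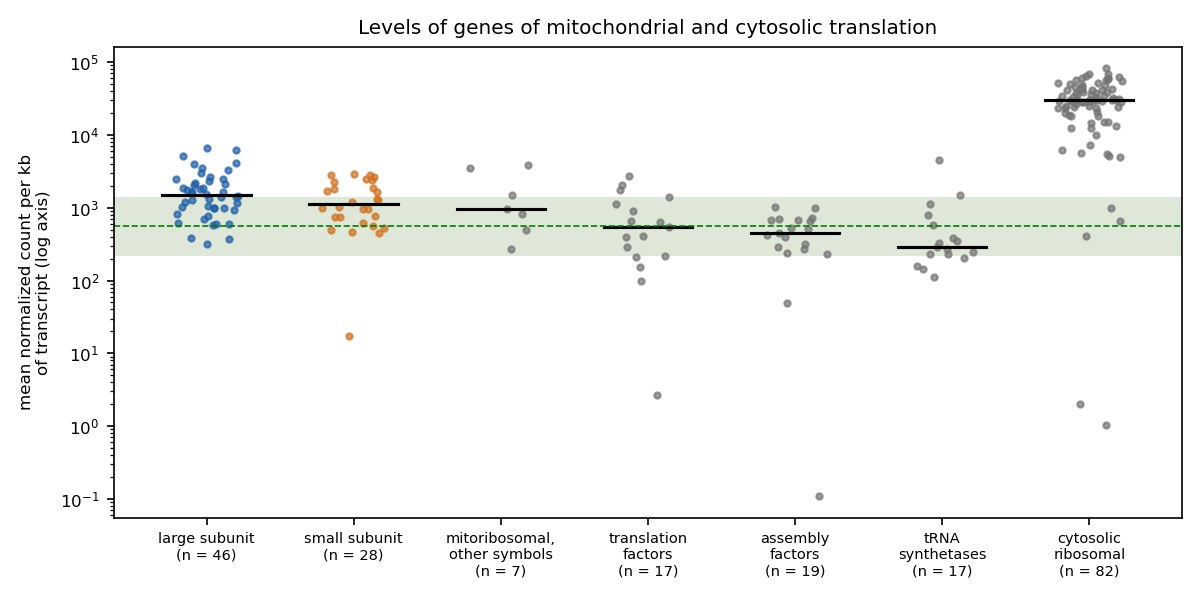
Authors' mean normalized count per kb of transcript (log axis) for genes of mitochondrial and cytosolic translation, with 1 dot per gene and a black line at each median. The dashed green line and the band are the median (563) and the middle 50% of protein-coding genes with a mean of at least 100. The medians of both subunits lie above that line, with 66 of the 74 members above it, and the median of cytosolic ribosomal protein genes lies higher still.

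Members were spread over 17 chromosomes, with 1 to 10 on each, and none was on chromosomes 12, 18, X or Y. Chromosome 11 held the most, 7 large-subunit and 3 small-subunit genes, and 17.1% of the members' summed means. This chromosome also has the most protein-coding genes with a mean of at least 100 (835), so its rate was 12.0 members per 1000 such genes, against 7.47 over all chromosomes. Chromosome 17 had the highest rate, 16.7 per 1000, with 4 genes of each subunit. Chromosome 19 followed at 14.4 per 1000 with 5 genes, all of the large subunit, and chromosome 13 at 14.0 per 1000 with 2 large-subunit and 3 small-subunit genes. Low rates were found for chromosome 15, with *Mrpl13* alone (2.43 per 1000), and chromosome 8, with 2 genes (3.70 per 1000). The subunits were thus mixed on most chromosomes: 14 held genes of both, and chromosomes 10, 15 and 19 held large-subunit genes only. Chromosome 2 leaned the other way, with 1 large-subunit and 3 small-subunit genes.

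The order of the chromosomes by level depended on the length used. Among chromosomes with at least 5 members, the median was highest on chromosome 17 (2505 per kb, from 962 for *Mrps34* to 3320 for *Mrpl28*) and lowest on chromosome 6 (721 per kb, from 380 for *Mrpl51* to 1028 for *Mrps33*). Without division by length the order of these 2 was reversed, with 2373 on chromosome 17 and 2542 on chromosome 6, and per kb of coding sequence the medians were 3985 and 4571. All protein-coding genes with a mean of at least 100 had medians of 575 per kb on chromosome 17 and 638 per kb on chromosome 6. Chromosome 7 had 5 members at a median of 739 per kb against 461 for its genes, and was the lowest of these chromosomes by coding length (1578 per kb) and by the undivided mean (1340). Chromosome 11 members ran from 619 (*Mrpl55*) to 5206 per kb (*Mrpl12*), with a median of 1953. Chromosome 2 holds *Mrps2*, and its 4 members had a median of 598 per kb against 635 for its genes, the only chromosome with members whose median was not above that of its genes per kb of transcript. By the undivided mean this held for 6 chromosomes and per kb of coding sequence for 0. With 10 or fewer genes on each, these medians rest on few values.

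**Figure D3:**
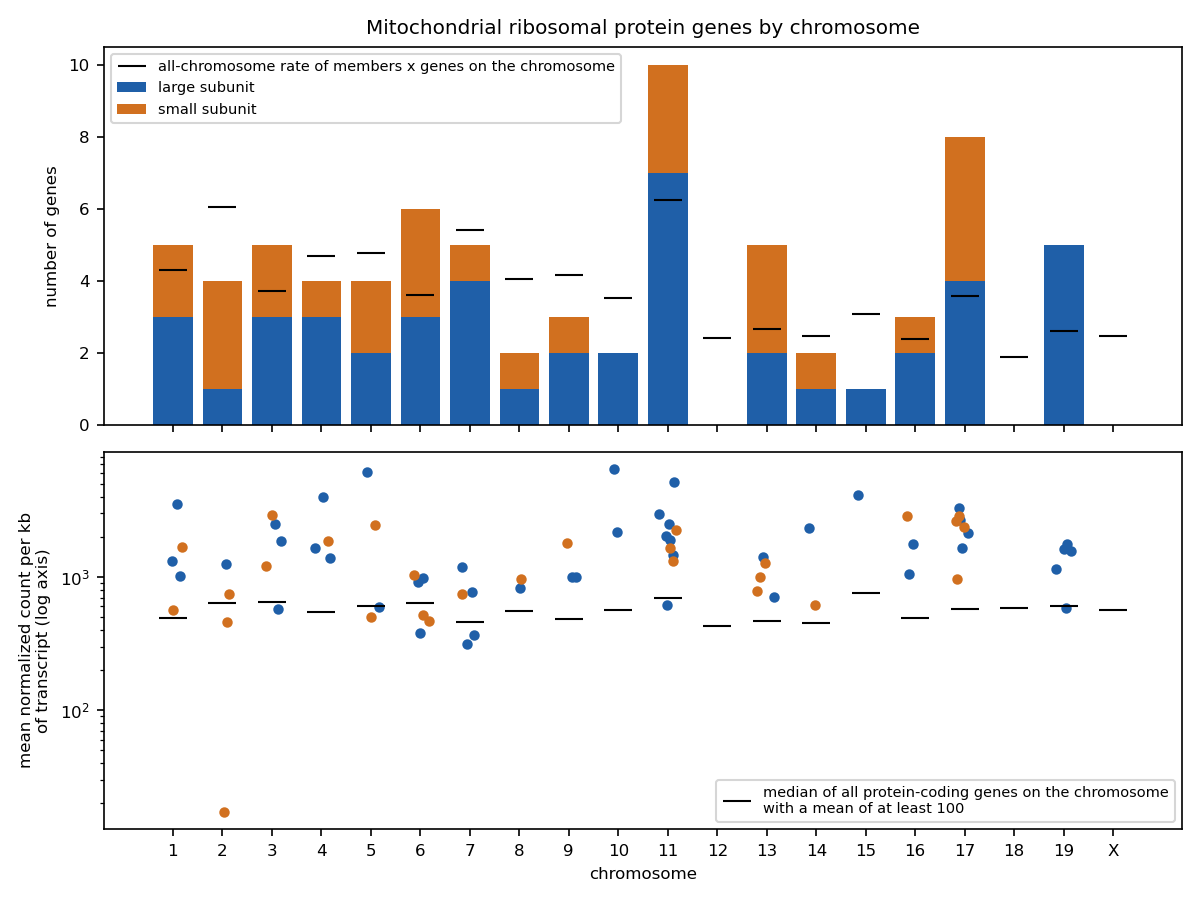
Top, number of large-subunit (blue) and small-subunit genes (orange) on each chromosome; black marks give the number at the all-chromosome rate of 7.47 members per 1000 protein-coding genes with a mean of at least 100. Bottom, level of each member per kb of transcript (log axis), with black marks at the chromosome's median of all such genes. Chromosomes 11 and 17 hold the most members, and chromosomes 12, 18 and X hold none.

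No member directly adjoined another member of the table. The closest groups were on chromosomes 11 and 17. On chromosome 17, *Mrpl14*, *Mrps18a*, *Mrpl2* and *Mrps10* follow one another, each less than 1000000 bases from the next, with 2, 20 and 15 protein-coding genes between them. Their levels were 2144, 2638, 1643 and 2371 per kb of transcript, all above the members' median. Per kb of coding sequence, and by the undivided mean, 2 of the 4 were above it. On chromosome 11, *Mrpl10* and *Mrpl45* are separated by 5 protein-coding genes and *Mrps7* and *Mrpl38* by 20. Of the genes on the lists of mitochondrial translation, 1 adjoined a member, the seryl-tRNA synthetase gene *Sars2*, which lies next to *Mrps12* on chromosome 7. *Mrps12*, whose protein belongs to the decoding site, stood at 739 and *Sars2* at 229 per kb.

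Many members share their promoter region with a neighbour on the opposite strand. Of the 74 members, 26 (35.1%) had the 5′ end of another protein-coding gene on the opposite strand within 1000 bases. The same held for 15.2% of protein-coding genes with a mean of at least 100 and for 14.6% of cytosolic ribosomal protein genes. By subunit it was 18 of 46 large-subunit (39.1%) and 8 of 28 small-subunit genes (28.6%). These counts and the distances include pairs that overlap at their 5′ ends and so do not point away from each other. *Mrpl21* and *Ighmbp2* start 116 bases apart, and 8.58% of the exon length of *Mrpl21* overlaps *Ighmbp2*. The median distance between the paired starts was 125 bases, with 29 bases for *Mrps34* and *Eme2*, 37 for *Mrpl18* and the chaperonin gene *Tcp1*, and 66 for *Mrpl30* and *Mitd1*. One pair joins both subunits: *Mrpl46* starts 30 bases from *Mrps11*, a gene the table does not list in this spelling.

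Sharing a start region did not go with equal levels. For 24 of the 26 pairs the neighbour had a value, and the ribosomal gene was the higher one in 19 per kb of transcript, in 20 per kb of coding sequence and in 14 by the undivided mean. The neighbours' median was 575 per kb, close to the 563 of protein-coding genes with a mean of at least 100. Members with such a neighbour had a median of 1644 and the 48 without one 1257 per kb of transcript, but 3388 and 3513 per kb of coding sequence. The largest ratios of a member to its neighbour were between *Mrpl10* (1880 per kb) and *Lrrc46* (8.06 per kb), and between *Mrpl37* (1662) and *Cyb5rl* (7.03). *Mrps7* (2233) and *Gga3* (29.2) were also far apart. In the other 5 pairs the neighbour was higher per kb of transcript: *Tcp1* reached 17544 per kb beside *Mrpl18* at 2664, and *Fau*, which encodes a cytosolic ribosomal protein, 15229 beside *Mrpl49* at 1626. The proteasome gene *Psma2* (3679) exceeded *Mrpl32* (706), *Ncapd2* (3056) exceeded *Mrpl51* (380), and *Ndufb5* (2128), which encodes a subunit of respiratory complex I, exceeded *Mrpl47* (573).

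**Figure D4:**
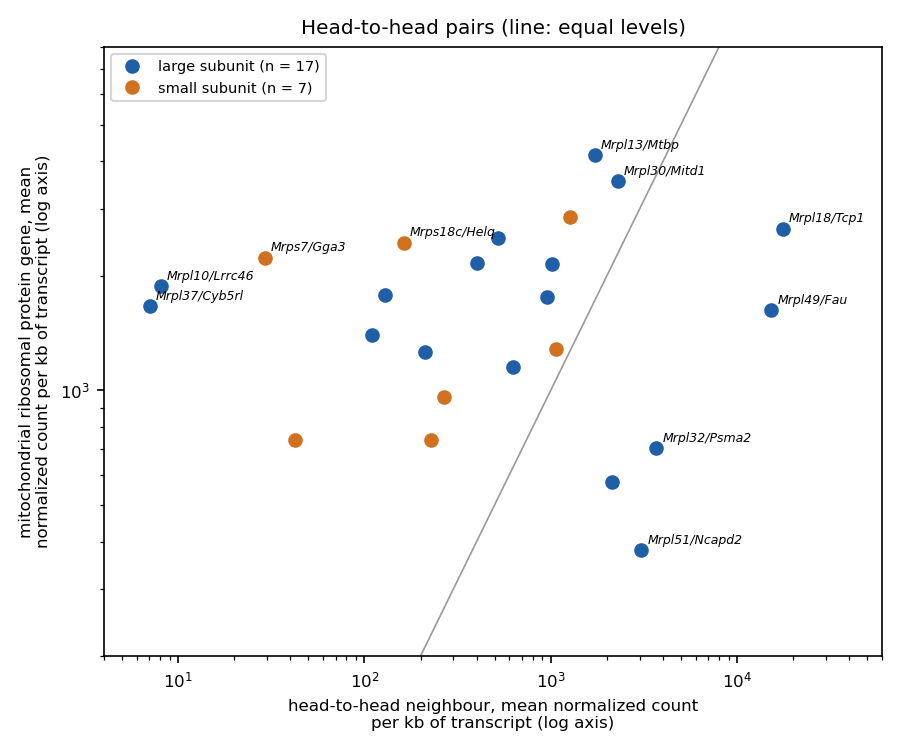
Level of 24 mitochondrial ribosomal protein genes (y axis) against that of the head-to-head neighbour within 1000 bases (x axis), both as the authors' mean normalized count per kb of transcript on log axes with different spans. Blue dots are large-subunit and orange dots small-subunit genes, and the line marks equal levels. The member is the higher gene in 19 pairs, those to the left of the line.

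The promoters were searched for letters of 4 common motifs on both strands in the 300-base windows. RefSeq promoters were matched for 65 of the 74 members, 7284 of the 9912 protein-coding genes with a mean of at least 100 and 61 of the 82 cytosolic ribosomal protein genes. Shares are of the matched genes, and a gene with several starts counted once. NRF1, an activator of nuclear genes for mitochondrial proteins, was searched as GCGC, any base and then TGCGC. These letters were found in 12 of 65 members (18.5%), 12.8% of protein-coding genes with a mean of at least 100 and 5.19% of all promoters. ETS factors, searched as CCGGAAG, gave 23 members (35.4%) against 21.9% and 9.93%. YY1, searched as AAGATGGCG, gave 7 members (10.8%) against 4.04% and 1.64%. The CCAAT box, searched as CCAAT, was found in 26 members (40.0%), 44.2% of protein-coding genes with a mean of at least 100 and 41.1% of all promoters. At least 1 of the first 3 motifs was present in 37 members (56.9%), compared with 34.4% of protein-coding genes with a mean of at least 100 and 54.1% of cytosolic ribosomal protein genes. ETS letters were in 41.0% of these cytosolic genes, a larger share than of the members. For NRF1 the cytosolic share was 9.84%, for YY1 6.56% and for the CCAAT box 29.5%.

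By subunit the counts were small, and no test was made between them. NRF1 letters were in 9 of 40 large-subunit promoters (22.5%) and 3 of 25 small-subunit promoters (12.0%). For ETS letters the order was the other way, with 12 of 40 (30.0%) and 11 of 25 (44.0%). YY1 letters were in 10.0% and 12.0%. Matches sat near the start. Relative to the start, the median position was −38 for NRF1 and −22.5 for ETS, whereas the median of the 7 YY1 matches was 23, with 6 of them after the start. In the sequences shown, *Mrpl42* has the YY1 letters, *Mrps21* both NRF1 and ETS letters, and *Mrpl12* and *Mrpl30* NRF1 letters. *Mrps2* had none of the 3, as did 27 other matched members. *Mrpl45* had 3 separate NRF1 matches in its window. Levels hardly followed the motifs. Members with NRF1 letters had a median of 1566 per kb and those without 1398. With and without ETS letters the medians were 1661 and 1401, and for YY1 letters 1404 and 1430. For the CCAAT box they were 1328 with the letters and 1562 without. A match describes letters only and does not show that a factor binds.

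**Figure D5:**
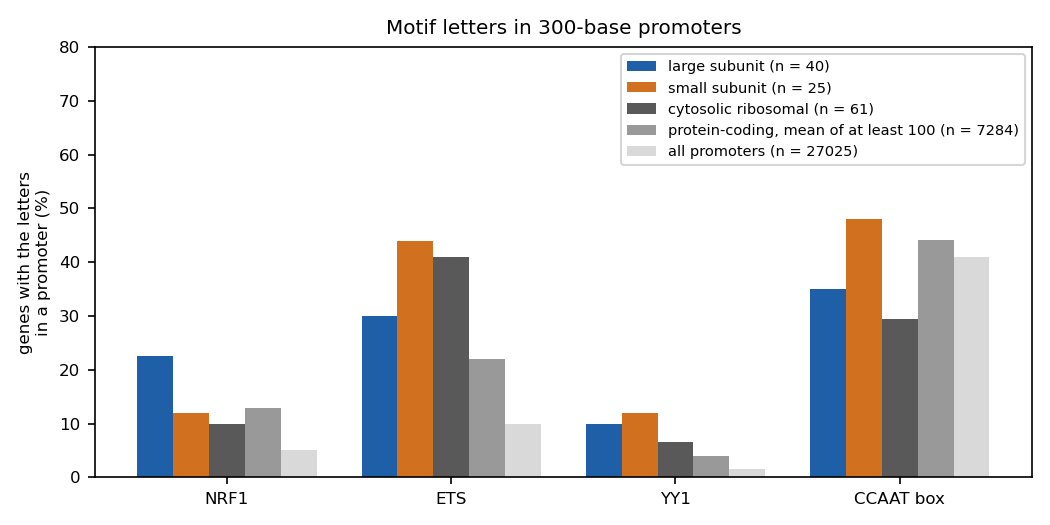
Percent of genes with the letters of each motif in a 300-base promoter, for large-subunit (blue, n = 40) and small-subunit genes (orange, n = 25), cytosolic ribosomal protein genes, protein-coding genes with a mean of at least 100, and all promoters (greys). NRF1, ETS and YY1 letters are more frequent among members of both subunits than among all promoters, with NRF1 of small-subunit genes (12.0%) close to the expressed genes (12.8%).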

How the data were processed

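RNA-seq of 6 libraries (3 *Ms4a15* OE, 3 control) was used as deposited by the authors. The signal in the table is the authors' mean of size-factor-normalized counts over all 6 libraries. Another 5 columns hold the fold change, its standard error, p-value, adjusted p-value and direction from the authors' own comparison and were not used. Since no counts of single libraries were used here, the planned test between the groups was not run. Submitters' notes name TopHat, Cufflinks, Cuffdiff, HTSeq, DESeq2 and mm10, whereas the authors' methods give STAR, HTSeq-count and DESeq2 with UCSC known genes. Labels and methods also differ on RNA kit and read length. The labels name a stranded library kit, and the strand setting of HTSeq is not given in the sources used here.

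Members and gene lists were chosen with earlier results of these data known. Lengths came from the APPRIS principal GENCODE M21 transcript (GRCm38), the longest where several tied. Named genes were the 5 highest and 5 lowest per subunit by level per kb, the Mrps18 paralogs, Mrps30, Mrps36, Mrpl12, members with a mean below 100, members next to each other or to a listed gene, the extremes of each list, and Ms4a15. The search for head-to-head pairs, for shared windows and exon overlap, and the genes named from them, were chosen after the values were seen. Other lengths, other subunit assignments, a minimum mean of 100 and other pair distances were tried, some of them chosen after seeing the data. Calculations used Python 3.11.15, numpy 2.4.6, pandas 2.3.3, scipy 1.17.1 and matplotlib 3.10.9. The counting intervals were tested on simulated Poisson counts without variation between cultures. That test checks the calculation only, not whether counting error is the only error in these libraries.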

Additional observations from a re-analysis of the deposited data

How the results depend on the processing

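No paired analysis was possible because the table holds 1 mean per gene over all 6 libraries. The planned replicate block, other normalization, low-count filter and leaving out of single libraries were not run for the same reason. Large-subunit genes kept the higher median under every length and assignment tried. With coding length the medians were 3546 (large) and 2937 (small) per kb, with a ratio of 1.21; with no division by length they were 2192 and 1935, with a ratio of 1.13. With all exons merged, chosen after seeing the data, the large-subunit median was 1473. Sorting by the place of the protein, and keeping members with a mean of at least 100, each gave a ratio of 1.26. The share of the table's counts was 0.469% with the other mitoribosomal symbols. The 90th over the 10th percentile was 4.06 without division by length and 5.18 at a mean of at least 100. Chosen after seeing the data, it was 4.06 with coding length, 5.85 with merged exons and 3.75 over members without shared windows. Head-to-head shares, also chosen then, were 32.4% within 500 and 39.2% within 2000 bases. Other lengths for further comparisons were also chosen after seeing the data. With coding length, and then with no division, the members' median was 2.86 and 1.22 times that of protein-coding genes with a mean of at least 100. It was 4.13 and 1.43 times that of translation factors. The ratio of chromosome 17 to chromosome 6 members was 3.47 per kb of transcript and reversed to 0.872 and 0.933. Large-subunit genes above the highest small-subunit gene numbered 5 and 4. Without values of single libraries, the spread between cultures is unknown for every value here.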

Other observations

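Members were also divided by descent, a division made after the values were seen. Of 73 mitoribosomal members, 46 have a counterpart in bacterial ribosomes and 27 do not. The median level was 1656 per kb for the first and 1182 per kb for the second. The order was the same in both subunits by place: 1710 and 1328 per kb in the large, and 1498 and 967 per kb in the small subunit. Both the highest member, *Mrpl42* at 6503 per kb, and the lowest large-subunit member, *Mrpl48* at 314 per kb, belong to the mitochondria-specific proteins, whereas *Mrps2* at 17.2 per kb is of bacterial descent. The median of the means not divided by length was 1718 for the 16 small-subunit genes of bacterial descent and 1945 for the 9 others, so in the small subunit the order depended on the division by length.

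Base composition differed along the order of levels. Across the 74 members, Spearman's rho between the GC content of the transcript and the level per kb was 0.43, and with the mean not divided by length it was −0.25. The parts of length and base composition in these values were not separated.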
